A study of Sus scrofa with 14 samples.

Results

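A set of 46 genes was near silent in 2 of 7 groups of porcine stem cell cultures and expressed in the other 5. The silent groups were the primary outgrowths of blastocysts (pESCLC-primary) and the embryonic stem cell-like cells kept from them in F medium (pESCLC-F). The genes were chosen by a rule on the measured values. The mean normalized count of the 2 samples had to be below 15 in both of these groups and at least 40 in each of the other 5 groups. Of 19588 genes in the table, 46 (0.235%) met the rule, 41 with a gene symbol and 5 known only by their Ensembl identifiers. Since the difference between silent and expressing groups chose the genes, it is described below without a test.

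RNAseq of polyadenylated RNA was performed on 14 porcine samples, 2 in each of 7 groups, all grown on irradiated mouse embryonic fibroblast feeders. F is a basal medium supplemented with FGF2, and the study's methods give 2 forms of it. The form for the embryo-derived cells held fetal bovine serum and more FGF2, and the standard form held serum replacement. The base of FLB2i and FL6i also held serum replacement. By these methods, only the silent groups were in fetal bovine serum when sampled, and its part was not tested. FLB2i medium holds FGF2, LIF, BMP4 and inhibitors of GSK3A and TGFB1, and FL6i medium holds FGF2, LIF and inhibitors of MAPK14, MAPK8, TGFB1, GSK3A, MAP2K1 and BMP. The pESCLC-F samples carry the label p2, read here as passage 2. By the labels, some cells kept in F were moved to FL6i at day 8 (pESCLC-FL6i, 1 line code at passages 3 and 9), and some of those to FLB2i at day 18 (pESCLC-FLB2i, 1 line code at passages 3 and 6), whereas the study's text describes a move of primary outgrowths. Lv-piPSC-F are induced pluripotent cells made with lentiviral vectors and kept in F. Both titles name the line ID6, but the source label of the second sample gives another code, at passage 46. Epi-piPSC were made from porcine fetal fibroblasts with episomal plasmids that carry the human genes LIN28, KLF4, SOX2, POU5F1 and L-MYC and an shRNA against p53. Epi-piPSC-FLB2i is 1 line code at passages 9 and 12, and Epi-piPSC-FL6i is 2 line codes at passages 12 and 11. Nothing in the labels ties the samples of a group to separate animals, so the p-values below measure the spread between these samples only. Origin and medium cannot be told apart in comparisons of Lv-piPSC-F, which is the only induced group in F, and by the labels the embryo-derived cells reached FLB2i by way of FL6i.

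The labels were set against marker genes of the cell types they name. LIN28A, an RNA-binding protein of pluripotent cells, had between 1940.2 and 11449.5 normalized counts in the outgrowths, in pESCLC-F and in the 3 induced groups, but the pESCLC-FLB2i samples had 32.3 and 0.985 and those of pESCLC-FL6i 23.1 and 0. NANOG, a core pluripotency factor, was between 178 and 847 in the outgrowths and both groups kept in F, and between 0.965 and 36.9 in the other 4 groups. The summed counts of 5 primitive endoderm genes (GATA4, GATA6, HNF4A, APOE and PDGFRA) were between 71208 and 147435 in the 4 samples of the silent groups and between 51.4 and 5109 in the other 10. DPPA2, the third pluripotency gene measured here, was between 18.3 and 52.6 in all 14 samples, and between 26.2 and 49.8 in pESCLC-FLB2i and pESCLC-FL6i. LIN28A and NANOG, but not DPPA2, were thus lower in the 2 pESCLC groups that expressed the 46 genes than in the outgrowths and pESCLC-F. The endoderm sum was high in the silent groups, with APOE its largest part at 52416 to 115194. A list of 9 trophectoderm genes was also high there, at 341833 to 481424, against 281 to 92156 in the other 10 samples. Most of that was KRT8 and KRT18, and CDX2 and TFAP2C were at most 14.2 in pESCLC-F. EOMES, a mesoderm gene, was 5381 to 7398 in the silent samples and at most 201 elsewhere, whereas TBXT was at most 2.09 in pESCLC-F. The part of the human LIN28 plasmid in the LIN28A reads of Epi-piPSC was not tested. Fewer cells of a type and less RNA per cell cannot be told apart in these bulk samples.

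Some libraries stood apart. Reads on genes ranged from 6193659 in the second pESCLC-FL6i sample to 58878377 in the second Lv-piPSC-F sample. The second pESCLC-FL6i sample also had 334654 summed counts of 7 fibroblast genes, against 37405 in the first, and the second pESCLC-FLB2i sample had 146866 against 47065. The Y-linked gene KDM5D had 26.2 normalized counts in the second pESCLC-FL6i sample and 0 in the first, although both carry the same line code. In the pESCLC-primary samples it had 68.9 and 1.09. It was between 181 and 321 in Lv-piPSC-F and Epi-piPSC-FL6i and at most 3.14 in the remaining samples. The part of feeder cells, of other cells or of mixed lines in the levels of the 46 genes was not tested.

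Many of the roles named below are ones that neurons use. Neurons signal through ion channels and neurotransmitter receptors, release transmitters from vesicles that Rab GTPases and lipid-binding proteins move and recycle, and keep their contacts through adhesion molecules that carry particular glycans. Others of the 46 genes are known from germ cells, the cell cycle or general metabolism and signalling, and no test of a shared function was made. For description, the 46 genes were grouped by known role after their values had been seen: 9 ion channels, receptors and receptor partners, 8 proteins of vesicles, trafficking and the cytoskeleton, 7 cell surface or secreted proteins, 4 glycan enzymes, 6 nuclear or RNA-binding proteins, 7 proteins of signalling, cell cycle and metabolism, and the 5 genes without a symbol. SOX3 was the only one of the 46 on any of the gene lists used here, and it was on the list of primed or formative pluripotency genes.

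The level of the 46 genes in the silent groups was a few reads. The median over the 46 genes of the group mean was 5.44 normalized counts in pESCLC-primary and 2.05 in pESCLC-F. In the expressing groups it was lowest in Lv-piPSC-F at 98.5, then 132 (Epi-piPSC-FLB2i), 167 (Epi-piPSC-FL6i) and 241 (pESCLC-FLB2i), and highest in pESCLC-FL6i at 423. In pESCLC-F, 26 of the 46 genes had at most 3 reads in both samples and 7 had none in either. In pESCLC-primary, 6 had at most 3 reads in both samples and 1, LRP11, had none. A count of 0 in 1 sample allows up to 3 reads, which is 2.95 to 3.28 normalized counts in the 4 silent samples, and this limit covers counting error only. Summed over the 46 genes, the first pESCLC-primary sample held 385 normalized counts and the second 223, and the pESCLC-F samples held 115 and 157. Every expressing sample held at least 6387 and the highest, the second pESCLC-FL6i sample, held 52836.

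**Figure D1:**
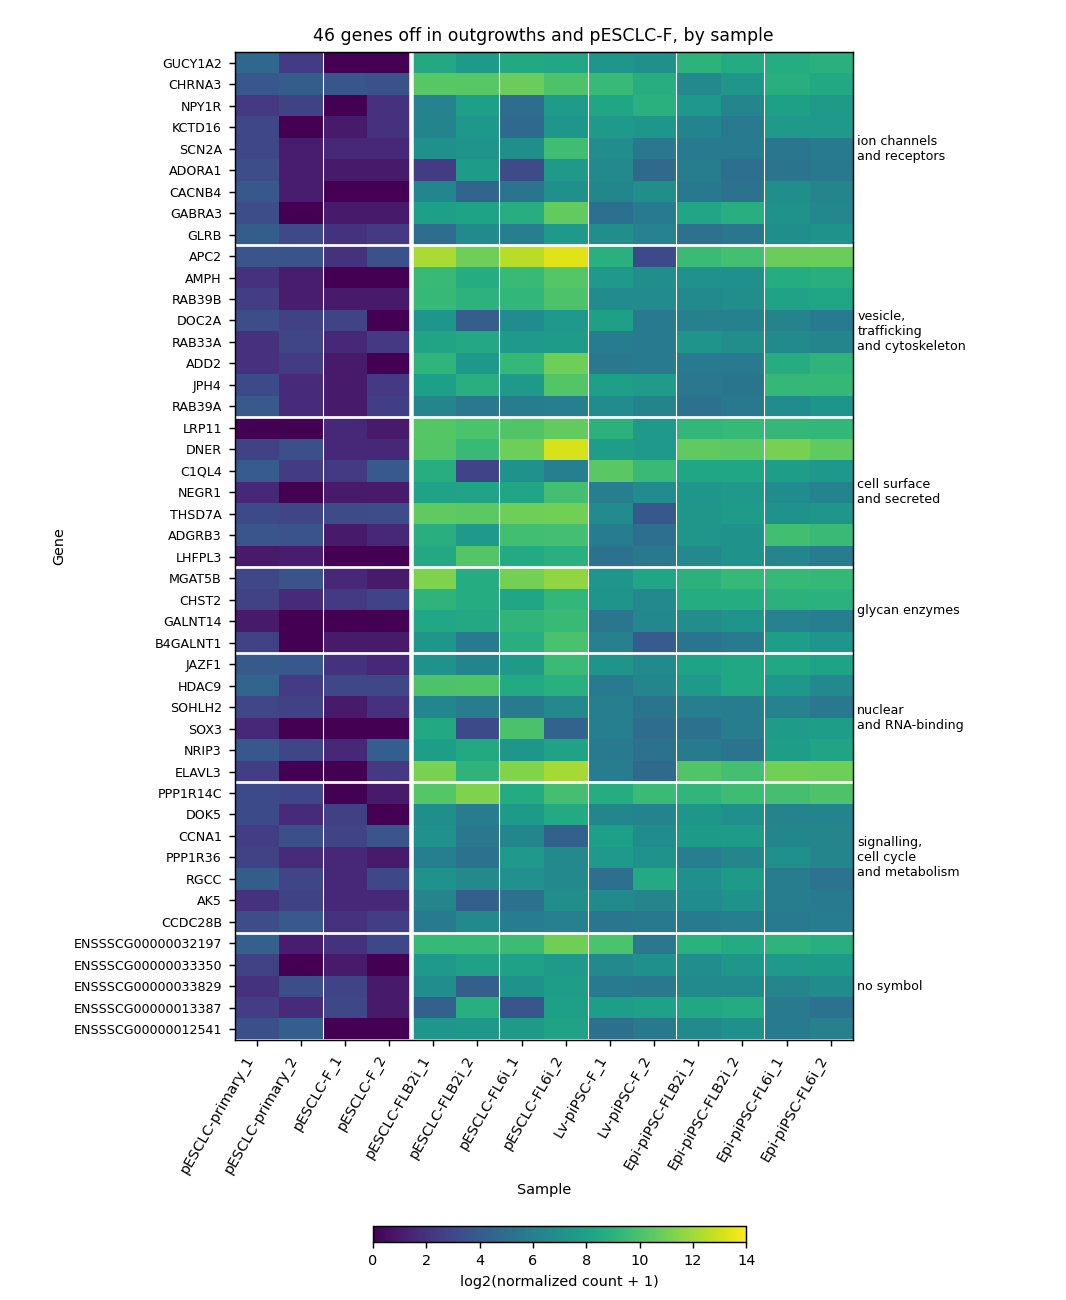
Level of each of the 46 genes (rows, grouped by known role) in each of the 14 samples (columns), as the colour of log2(normalized count + 1). The left 4 columns are the silent groups. Counts are not divided by gene length, so colours compare samples within a row. SOX3, ADORA1, C1QL4 and APC2 each have a dark cell in a group that counts as expressing.

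The rule works on means of 2 samples, and not every sample kept to it. All 4 silent samples were below 15 for 37 of the 46 genes, and 9 genes had a silent sample at 15 or more, the highest being GUCY1A2 at 25.6 in the first pESCLC-primary sample. All 10 expressing samples were at 40 or more for 22 genes. In the other 24 genes at least 1 expressing sample was below 40, and in 6 of these (ADORA1, APC2, C1QL4, ENSSSCG00000013387, SOX3 and THSD7A) at least 1 was below 15. A total of 18 genes kept to both thresholds in every sample. Without the first pESCLC-primary sample 67 genes met the rule, 44 of the 46 among them, and without the second pESCLC-FL6i sample 41 did, all of them among the 46. Just inside the lower threshold were GUCY1A2 at 14.97, CHRNA3 at 14.6 and JAZF1 at 13.9, and just outside were CPLX2 at 15.04, ENSSSCG00000012530 at 15.2 and KCNJ14 at 15.9. Just inside the upper threshold were GLRB at 41.3, B4GALNT1 at 41.9 and ELAVL3 at 42.4, and just outside were GDAP1L1 at 39.3, PID1 at 39.3 and ENSSSCG00000010165 at 38.7.

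A total of 38 of the 46 genes were placed on the Sscrofa11.1 assembly by matching their symbols to RefSeq. Chromosome 9 held 7 of the 38 (18.4%, against 4.95% of the 13147 genes placed the same way) and chromosome X held 4 (10.5%, against 3.44%). The genes on chromosome 9 were RAB39A, GUCY1A2, THSD7A, HDAC9, LHFPL3, AMPH and ADORA1, and those on X were RAB33A, SOX3, GABRA3 and RAB39B. The closest pair was PPP1R14C (chr1:15867846-15949951, minus strand) and LRP11 (chr1:16139227-16198974, plus strand) on chromosome 1, 189275 bases apart. They had the highest lowest group mean in the expressing groups among the genes with a symbol.

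The 250 bases before the RefSeq start of each gene were read for the 38 placed genes and for 13160 matched genes in all. The median GC content was 63.2% in the 38 windows, with a range from 29.6% to 85.6%, and 60.4% in all windows. The ratio of observed to expected CpG had a median of 0.803 in the 38 windows, from 0 to 1.24, and of 0.693 in all windows. The GC box GGGCGG, on either strand, was in 24 of the 38 windows (63.2%, against 54.2% of all), CCAAT in 9 (23.7%, against 31.8%), TATAAA in 3 (7.89%, against 7.64%) and the E-box CACGTG in 2 (5.26%, against 7.06%). Such matches are a description of these letters and not of binding. Windows of 4 genes are shown, 5′ to 3′ on the strand of the gene, with each CG in capitals. They are the neighbours PPP1R14C (chr1:15949952-15950201, minus strand) and LRP11 (chr1:16138977-16139226, plus strand), chosen for their lowest group mean in the expressing groups, the highest among the genes with a symbol, and the windows with the highest and a lowest CpG ratio, those of GUCY1A2 (chr9:62101331-62101580, plus strand) and CCDC28B (chr6:88677916-88678165, plus strand).
PPP1R14C: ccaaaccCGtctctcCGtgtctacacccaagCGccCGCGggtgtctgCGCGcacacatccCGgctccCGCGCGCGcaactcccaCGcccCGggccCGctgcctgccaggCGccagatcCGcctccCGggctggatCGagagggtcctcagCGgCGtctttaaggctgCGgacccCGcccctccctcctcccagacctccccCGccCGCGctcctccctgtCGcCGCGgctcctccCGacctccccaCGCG
LRP11: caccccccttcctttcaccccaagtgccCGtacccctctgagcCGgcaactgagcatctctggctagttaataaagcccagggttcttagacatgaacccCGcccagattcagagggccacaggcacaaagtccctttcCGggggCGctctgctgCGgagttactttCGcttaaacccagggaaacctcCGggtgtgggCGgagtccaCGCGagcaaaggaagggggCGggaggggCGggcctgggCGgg
GUCY1A2: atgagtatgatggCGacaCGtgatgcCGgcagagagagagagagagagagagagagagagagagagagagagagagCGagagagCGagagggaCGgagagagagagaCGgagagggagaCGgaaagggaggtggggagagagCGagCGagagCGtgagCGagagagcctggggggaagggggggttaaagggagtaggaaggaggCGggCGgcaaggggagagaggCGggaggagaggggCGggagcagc
CCDC28B: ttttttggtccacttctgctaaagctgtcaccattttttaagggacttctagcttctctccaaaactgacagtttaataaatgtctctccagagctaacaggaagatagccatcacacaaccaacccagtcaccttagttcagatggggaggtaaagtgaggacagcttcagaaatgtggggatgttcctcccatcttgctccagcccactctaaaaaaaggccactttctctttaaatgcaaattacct
The PPP1R14C window held 32 CpG and the LRP11 window 14, whereas the CCDC28B window, 42.8% GC, held 0.

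Among the channels and receptors, CHRNA3, the alpha3 subunit of nicotinic acetylcholine receptors (chr7:47361710-47382743, plus strand), had one of the highest levels in the silent groups, with 12.8 and 16.4 in the pESCLC-primary samples and 12.6 and 10.1 in pESCLC-F. Its normalized counts were 1333 and 1303 (pESCLC-FLB2i), 1781 and 1085 (pESCLC-FL6i), 712 and 415 (Lv-piPSC-F), 95.2 and 168 (Epi-piPSC-FLB2i) and 432 and 365 (Epi-piPSC-FL6i). The 4 pESCLC samples in FLB2i and FL6i were above all others, Lv-piPSC-F and Epi-piPSC-FL6i overlapped, and both Epi-piPSC-FLB2i samples were below every other expressing sample. GUCY1A2, a subunit of the soluble guanylate cyclase that senses nitric oxide, had 25.6 and 4.37 in the pESCLC-primary samples and 0 and 0 in pESCLC-F, so that the first outgrowth sample carried most of its reads in the silent groups. It was 351 and 195 (pESCLC-FLB2i), 364 and 335 (pESCLC-FL6i), 163 and 127 (Lv-piPSC-F), 537 and 384 (Epi-piPSC-FLB2i) and 412 and 471 (Epi-piPSC-FL6i), and the highest group mean was 3.18 times the lowest. NPY1R, a receptor of neuropeptide Y, was 73.1 and 235 (pESCLC-FLB2i), 31.5 and 202 (pESCLC-FL6i), 297 and 478 (Lv-piPSC-F), 175 and 80.2 (Epi-piPSC-FLB2i) and 245 and 183 (Epi-piPSC-FL6i). It was highest in Lv-piPSC-F, and its first pESCLC-FL6i sample was the lowest of the 10. KCTD16, an auxiliary subunit of GABA-B receptors, was also lowest in the first pESCLC-FL6i sample, with 26.2 and 162 in that group and between 51.6 and 184 in the other expressing samples.

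Of the other channels and receptors, the GABA-A receptor subunit GABRA3 was 239 and 275 (pESCLC-FLB2i), 422 and 1574 (pESCLC-FL6i), 34.1 and 51.9 (Lv-piPSC-F), 297 and 435 (Epi-piPSC-FLB2i) and 140.0 and 88.9 (Epi-piPSC-FL6i), so that pESCLC-FL6i and Lv-piPSC-F differed 23.2-fold in their means. The sodium channel SCN2A was at 43.4 to 149.8 in 9 of the 10 expressing samples and at 838 in the second pESCLC-FL6i sample. The glycine receptor subunit GLRB, with the lowest group mean of the 46 genes that still met the upper threshold, was 31.5 and 103 (pESCLC-FLB2i), 61.9 and 191 (pESCLC-FL6i), 119.9 and 71.7 (Lv-piPSC-F), 38.3 and 44.3 (Epi-piPSC-FLB2i) and 126 and 143 (Epi-piPSC-FL6i). The calcium channel subunit CACNB4 was between 22.7 and 131. The adenosine receptor ADORA1 was above 40 at the later passage and below 15 at the earlier one in both expressing pESCLC groups, with 4.62 and 203 (pESCLC-FLB2i) and 8.39 and 183 (pESCLC-FL6i). In the other 3 expressing groups it was between 27.5 and 94.6.

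Among the genes of vesicles and the cytoskeleton, APC2, a relative of the tumour suppressor APC that binds microtubules, reached the highest level of the 46 genes. It had 11.8 and 10.9 in the pESCLC-primary samples and 3.14 and 10.1 in pESCLC-F. In the expressing groups it was 4843 and 1897 (pESCLC-FLB2i), 5825 and 10657 (pESCLC-FL6i), 469 and 8.01 (Lv-piPSC-F), 747 and 886 (Epi-piPSC-FLB2i) and 1784 and 1818 (Epi-piPSC-FL6i). The second Lv-piPSC-F sample lay within the range of the silent samples, although that sample had the most reads of all. AMPH, or amphiphysin, a protein of synaptic vesicle endocytosis, had 2.95 and 1.09 in the pESCLC-primary samples and 0 and 0 in pESCLC-F, and 719 and 409 (pESCLC-FLB2i), 717 and 1289 (pESCLC-FL6i), 193 and 122 (Lv-piPSC-F), 132 and 127 (Epi-piPSC-FLB2i) and 413 and 452 (Epi-piPSC-FL6i). RAB39B, a neuronal Rab GTPase encoded on X, had 4.92 and 1.09 in the pESCLC-primary samples and 1.05 and 1.01 in pESCLC-F, and 669 and 536 (pESCLC-FLB2i), 608 and 1069 (pESCLC-FL6i), 109 and 108 (Lv-piPSC-F), 97.3 and 118 (Epi-piPSC-FLB2i) and 269 and 311 (Epi-piPSC-FL6i). Both were highest in pESCLC-FLB2i and pESCLC-FL6i and lowest in Epi-piPSC-FLB2i and Lv-piPSC-F.

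JPH4, a junctophilin that ties the plasma membrane to the endoplasmic reticulum in neurons, had 7.87 and 2.19 in the pESCLC-primary samples and 1.05 and 4.05 in pESCLC-F. It was 234 and 452 (pESCLC-FLB2i), 193 and 1223 (pESCLC-FL6i), 238 and 215 (Lv-piPSC-F), 46.6 and 42.4 (Epi-piPSC-FLB2i) and 647 and 638 (Epi-piPSC-FL6i), so that both Epi-piPSC-FLB2i samples were below every other expressing sample. ADD2, the beta subunit of the cytoskeletal protein adducin, was 582 and 173 (pESCLC-FLB2i), 630.3 and 1944 (pESCLC-FL6i), 47.3 and 50.8 (Lv-piPSC-F), 55.9 and 52.6 (Epi-piPSC-FLB2i) and 407 and 557 (Epi-piPSC-FL6i). Its Epi-piPSC-FLB2i and Lv-piPSC-F samples were between 47.3 and 55.9, and its Epi-piPSC-FL6i samples were within the range of pESCLC-FLB2i and pESCLC-FL6i. The Rab GTPases RAB33A and RAB39A and the calcium sensor of vesicle release DOC2A were between 17.7 and 345 in the expressing samples, and the lowest of these was DOC2A in the second pESCLC-FLB2i sample.

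**Figure D2:**
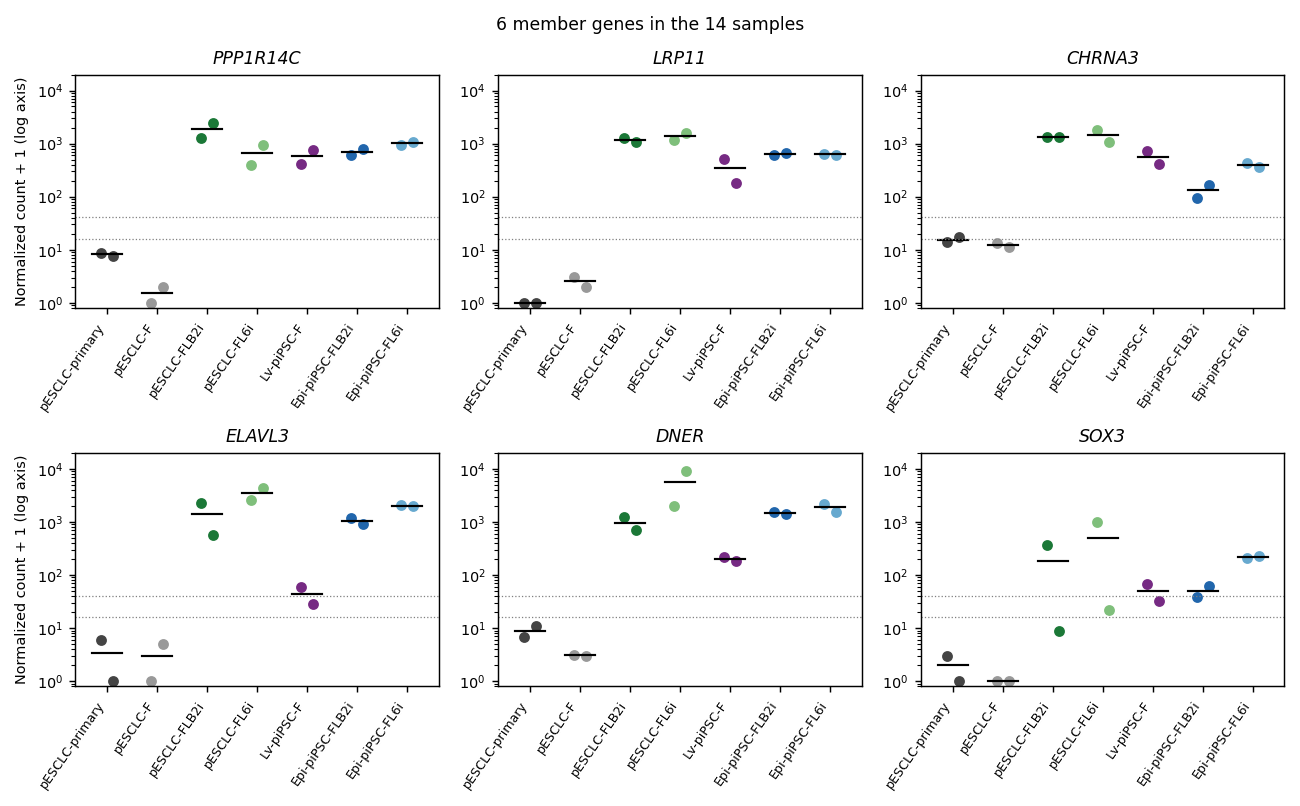
Normalized counts (+ 1, log axis) of 6 of the 46 genes in each of the 14 samples. Points are samples, the left one of each group being the first, bars are group means, and dotted lines mark the thresholds of 15 and 40. LRP11 is at 0 in both outgrowth samples and at 183 or more in every expressing sample, whereas SOX3 is at 7.88 and 21.0 in the second samples of pESCLC-FLB2i and pESCLC-FL6i.

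Among cell surface genes, LRP11, a membrane protein of the LDL receptor-related family, had 0 and 0 in the pESCLC-primary samples and 2.09 and 1.01 in pESCLC-F. It was 1255 and 1066 (pESCLC-FLB2i), 1187 and 1611 (pESCLC-FL6i), 513 and 183 (Lv-piPSC-F), 614 and 673 (Epi-piPSC-FLB2i) and 631 and 618 (Epi-piPSC-FL6i). No expressing sample was below 183, and the Epi-piPSC samples differed little from each other. DNER, a neuronal Notch ligand with EGF repeats (chr15:130414159-130754043, minus strand), had 5.9 and 9.84 in the pESCLC-primary samples and 2.09 and 2.02 in pESCLC-F. It was 1233 and 709 (pESCLC-FLB2i), 1953 and 9219 (pESCLC-FL6i), 219 and 182 (Lv-piPSC-F), 1529 and 1402 (Epi-piPSC-FLB2i) and 2209.9 and 1529 (Epi-piPSC-FL6i), the second pESCLC-FL6i sample being far above the first. THSD7A, a membrane protein with thrombospondin repeats, had 7.87 and 6.56 in the pESCLC-primary samples and 8.37 and 9.1 in pESCLC-F, and 1543 and 1406 (pESCLC-FLB2i), 1896 and 2059 (pESCLC-FL6i), 109 and 13.6 (Lv-piPSC-F), 167 and 206 (Epi-piPSC-FLB2i) and 137 and 166 (Epi-piPSC-FL6i). The pESCLC samples in FLB2i and FL6i were all at 1406 or more and the induced samples at 206 or less, with the second Lv-piPSC-F sample below 15.

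ADGRB3, an adhesion G protein-coupled receptor of synapses, and C1QL4, a secreted protein of the C1q-like family, some of whose members bind it, differed in their order. ADGRB3 was 433 and 188 (pESCLC-FLB2i), 881 and 893 (pESCLC-FL6i), 59.4 and 33.8 (Lv-piPSC-F), 167 and 147 (Epi-piPSC-FLB2i) and 855 and 687 (Epi-piPSC-FL6i), and C1QL4 was 421 and 5.91 (pESCLC-FLB2i), 147 and 65.5 (pESCLC-FL6i), 1350.0 and 682 (Lv-piPSC-F), 305 and 315 (Epi-piPSC-FLB2i) and 233 and 174 (Epi-piPSC-FL6i). ADGRB3 was thus lowest in Lv-piPSC-F, where C1QL4 was highest, and the second pESCLC-FLB2i sample had almost no C1QL4. The adhesion protein NEGR1 was between 62.7 and 917 and LHFPL3, a membrane protein of the tetraspan family, between 37.4 and 1232 in the expressing samples.

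The glycan enzymes were GALNT14, which starts mucin-type O-glycans, MGAT5B, which branches O-mannosyl glycans in brain, CHST2, which sulfates N-acetylglucosamine, and B4GALNT1, which makes the gangliosides GM2 and GD2. GALNT14 had no read in pESCLC-F and at most 1 in pESCLC-primary. It was 341 and 354 (pESCLC-FLB2i), 563 and 720.4 (pESCLC-FL6i), 44 and 92.6 (Lv-piPSC-F), 121 and 148 (Epi-piPSC-FLB2i) and 72.4 and 62.9 (Epi-piPSC-FL6i), with all 4 pESCLC samples in FLB2i and FL6i above all 6 induced samples. MGAT5B was 2464 and 411 (pESCLC-FLB2i), 2187 and 3264 (pESCLC-FL6i), 161 and 296 (Lv-piPSC-F), 517 and 659 (Epi-piPSC-FLB2i) and 659 and 632 (Epi-piPSC-FL6i), and the second pESCLC-FLB2i sample was below the Epi-piPSC samples. CHST2 was between 96.4 and 616 in the expressing samples, and B4GALNT1 was between 15.7 and 993.

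In the nuclear and RNA-binding group, ELAVL3, a neuronal RNA-binding protein of the Hu family (chr2:70114475-70134348, minus strand), had 4.92 and 0 in the pESCLC-primary samples and 0 and 4.05 in pESCLC-F. It was 2309 and 559.7 (pESCLC-FLB2i), 2575 and 4409 (pESCLC-FL6i), 57.2 and 27.5 (Lv-piPSC-F), 1179.8 and 931 (Epi-piPSC-FLB2i) and 2104 and 1959 (Epi-piPSC-FL6i). Lv-piPSC-F was the only expressing group near the threshold, and the mean of pESCLC-FL6i was 82.4 times that of Lv-piPSC-F, the widest such range among the 46 genes. HDAC9, a class IIa histone deacetylase, was 1084 and 1137 (pESCLC-FLB2i), 369 and 477 (pESCLC-FL6i), 56.1 and 85.6 (Lv-piPSC-F), 180.1 and 323 (Epi-piPSC-FLB2i) and 175 and 104 (Epi-piPSC-FL6i), highest in pESCLC-FLB2i. JAZF1, a zinc finger cofactor of transcription, was 145 and 77.8 (pESCLC-FLB2i), 185 and 741 (pESCLC-FL6i), 149.6 and 100.3 (Lv-piPSC-F), 274 and 319 (Epi-piPSC-FLB2i) and 329 and 278 (Epi-piPSC-FL6i). SOHLH2, a transcription factor of germ cells, was the most even of the 46 genes, between 41.1 and 96.9 in all expressing samples. NRIP3 was 233 and 356 (pESCLC-FLB2i), 171 and 269.8 (pESCLC-FL6i), 56.1 and 36.6 (Lv-piPSC-F), 54.9 and 40.6 (Epi-piPSC-FLB2i) and 227 and 293 (Epi-piPSC-FL6i).

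SOX3, a SoxB1 transcription factor of neural progenitors encoded on X (chrX:115017704-115020601, minus strand), had 2 reads in the first pESCLC-primary sample and none in the other 3 silent samples. It was 361 and 7.88 (pESCLC-FLB2i), 993 and 21 (pESCLC-FL6i), 66 and 31.3 (Lv-piPSC-F), 37.3 and 59.9 (Epi-piPSC-FLB2i) and 206 and 225 (Epi-piPSC-FL6i). Its level was high at the earlier passage and near silent at the later passage in pESCLC-FLB2i and pESCLC-FL6i, and the Epi-piPSC-FL6i samples were close to each other.

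The last named group holds PPP1R14C, an inhibitor of protein phosphatase 1, which had 7.87 and 6.56 in the pESCLC-primary samples and 0 and 1.01 in pESCLC-F. It was 1271 and 2490.0 (pESCLC-FLB2i), 395 and 922 (pESCLC-FL6i), 405 and 746 (Lv-piPSC-F), 599 and 792 (Epi-piPSC-FLB2i) and 939 and 1091 (Epi-piPSC-FL6i), the highest lowest group mean of the 46 genes at 575. DOK5, a docking protein of receptor tyrosine kinases, was between 61.1 and 382, the cyclin CCNA1 between 18.3 and 239.9, and RGCC, a regulator of the cell cycle, between 33.01 and 373. The adenylate kinase AK5, the phosphatase 1 subunit PPP1R36 and CCDC28B were between 17.7 and 192 in all expressing samples. Of the 5 genes without a symbol, ENSSSCG00000032197 had the highest lowest group mean at 440.3, although its Lv-piPSC-F samples were 1031 and 46.3. ENSSSCG00000033350 was between 95.7 and 258 in the expressing samples. ENSSSCG00000013387 was 19.2 and 429.6 (pESCLC-FLB2i), 12.6 and 244 (pESCLC-FL6i), 228 and 255 (Lv-piPSC-F), 335 and 385 (Epi-piPSC-FLB2i) and 55 and 37 (Epi-piPSC-FL6i), higher at the later than at the earlier passage in both expressing pESCLC groups, as was ADORA1.

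Within the 5 expressing groups the 46 genes were uneven. The highest group mean was at the median 5.41 times the lowest, from 1.45 for SOHLH2 to 82.4 for ELAVL3, against a median of 2.52 over the 10121 genes with a mean of at least 40 in all 5 groups. The highest mean was in pESCLC-FL6i for 25 of 46 genes (54.3%, against 20.2% of the 10121) and in pESCLC-FL6i or pESCLC-FLB2i for 32 (against 35.7%). The lowest was in Lv-piPSC-F for 23 (against 27.2%). The range and these shares were not tested, and the 10121 genes were not matched in level. The 46 genes also differed more between duplicates in every expressing group. Their median absolute log2 difference was 0.89 in pESCLC-FLB2i, against 0.38 over genes with a group mean of at least 40. In Lv-piPSC-F it was 0.63, against 0.35. The rule leaves out genes whose mean fell below 40 in any of the 5 groups, which bounds how low a group can be.

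**Figure D3:**
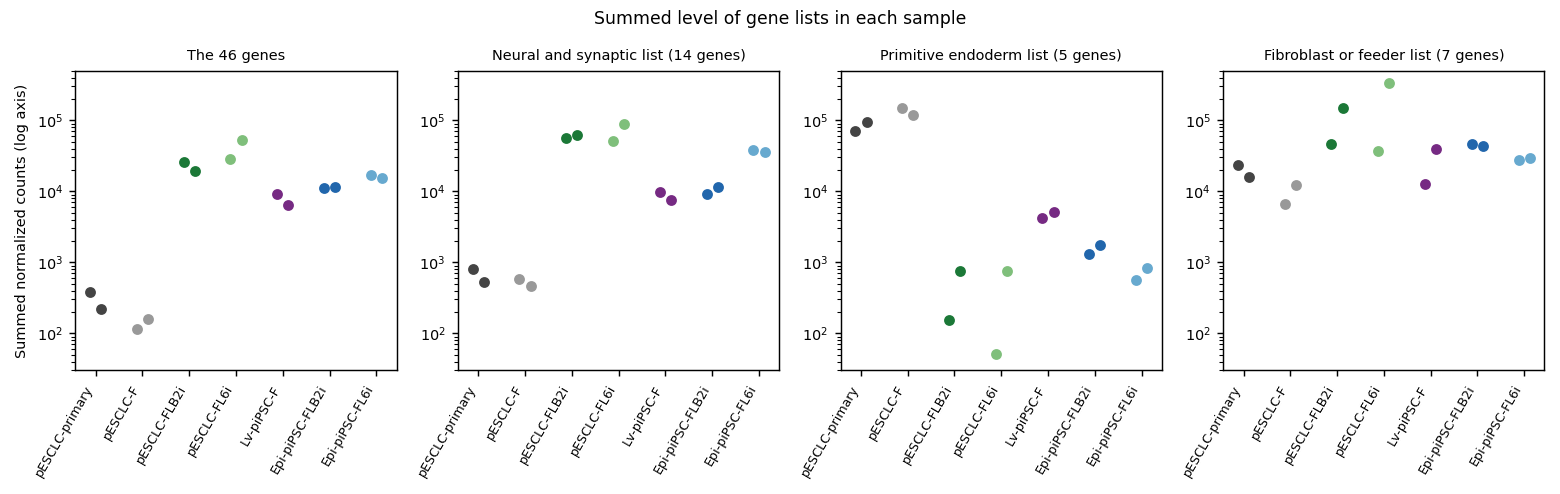
Summed normalized counts (log axis) in each sample for the 46 genes, for 14 neural and synaptic genes not among them, for 5 primitive endoderm genes and for 7 fibroblast genes. Points are samples, the left one of each group being the first. The sums of the 46 genes and of the neural list are lowest in the same 4 samples, in which the endoderm sum is highest. In Lv-piPSC-F the neural sum is mostly FABP7 and L1CAM.

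The neural and synaptic list shares no gene with the 46. It was chosen with earlier results of these data known and is descriptive only. Its sum was between 471 and 814 in the 4 silent samples. It was between 51054 and 87766 in the 4 pESCLC samples in FLB2i and FL6i. The Lv-piPSC-F samples had 9780.2 and 7484, those of Epi-piPSC-FLB2i 9293 and 11673, and those of Epi-piPSC-FL6i 38106 and 35484. The sum of Epi-piPSC-FL6i was mostly STMN2, a microtubule regulator of neurons, at 28096 and 26938, against 1366 and 2132 in Epi-piPSC-FLB2i. Most of the list ran the other way between these 2 groups, with a median log2 difference of −1.53 and 7 of 14 genes called lower in FL6i, so that the sum does not stand for the order of its genes. Likewise, the Lv-piPSC-F sum was mostly FABP7, at 6640 and 4434, and L1CAM, at 2523 and 1975. FABP7, L1CAM, STMN2 and GAP43 were higher there than in every silent sample. DCX, at 1.1 and 0.696, and MAP2, at 55 and 119, were lower there than in every silent sample. The rest of the list overlapped the silent samples. A separate neural ectoderm list had 7 measured genes. It summed to between 12234 and 14671 in the silent samples and to 6163 and 8003 in Lv-piPSC-F. The 4 pESCLC samples in FLB2i and FL6i had between 49802 and 63838, and the Epi-piPSC samples between 26529 and 32911. TUBB3, NES, SOX11 and NCAM1 were higher in each of those pESCLC samples than in every silent sample, and CRABP2 overlapped. SOX11 was still between 432 and 641 in the silent samples. OTX2 and PAX6 were the rest of this list. OTX2, a factor of the epiblast and the anterior neural plate, was between 3565 and 6664 in the silent samples and at most 2.62 in the 4 pESCLC samples in FLB2i and FL6i. PAX6, a factor of neural progenitors, was between 205 and 1666 in those 4 samples, 206 and 40.0 in Epi-piPSC-FL6i and at most 9.22 elsewhere.

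The duplicates of pESCLC-FLB2i and of pESCLC-FL6i were different passages. With 1 sample a passage there is no test, and a difference of at least 3-fold was counted. In pESCLC-FLB2i, 5 of 46 genes were higher at passage 6 than at passage 3 (10.9%, against 5.86% of the 12278 genes with a group mean of at least 40) and 9 were lower (19.6%, against 2.92%). In pESCLC-FL6i, 14 were higher at passage 9 than at passage 3 (30.4%, against 12.3%) and 2 were lower, CCNA1 and SOX3 (4.35%, against 6.92%). ADORA1, GLRB, NPY1R and ENSSSCG00000013387 were higher at the later passage in both groups and SOX3 was lower in both. ADD2, AK5 and CACNB4 were lower at the later passage in FLB2i and higher in FL6i. In Lv-piPSC-F, RGCC was higher in the second sample (2.17%, against 3.3%) and 6 genes were lower (13.0%, against 5.93%). No gene of the 46 differed 3-fold between the duplicates of either Epi-piPSC group, where 0.0422% of all genes were higher and 0.118% lower in FLB2i, and 0.0865% higher and 0.13% lower in FL6i. The summed fibroblast genes were higher at the later passage of both expressing pESCLC groups, and their part in these differences was not tested.

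**Figure D4:**
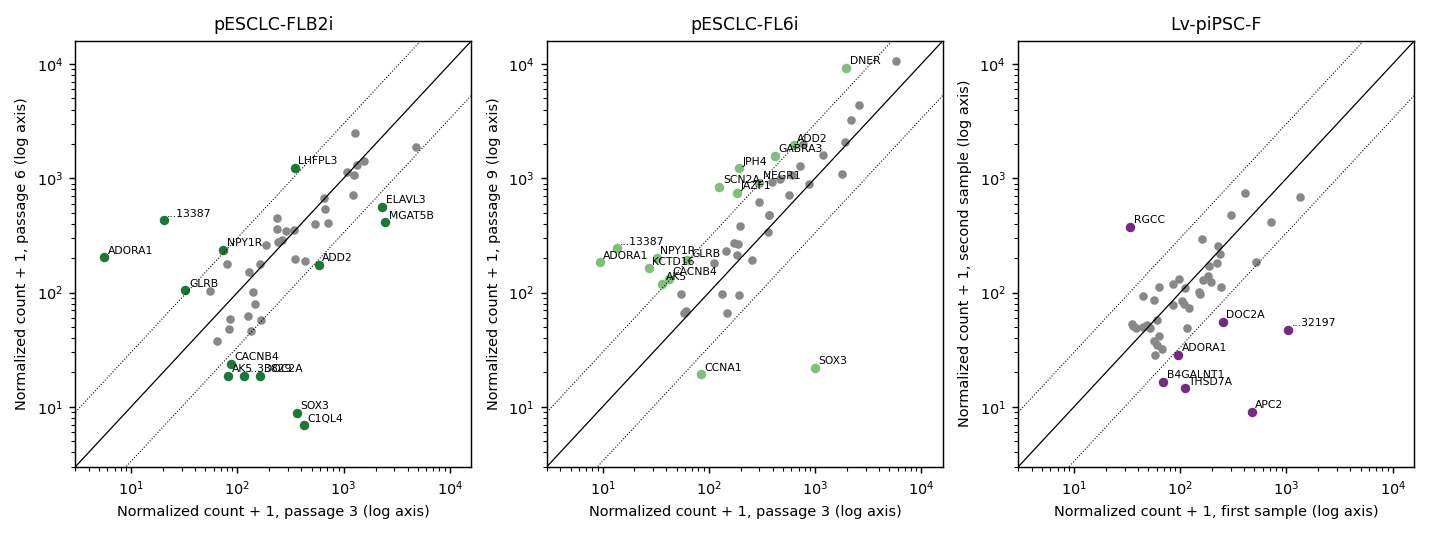
Normalized counts (+ 1, log axes) of the 46 genes in the second against the first sample of 3 groups. The solid line is equality and the dotted lines are 3-fold. Coloured points with names are past 3-fold, and names that start with dots are the last digits of Ensembl identifiers. In pESCLC-FL6i, 14 genes lie above the upper dotted line and 2 below the lower one.

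Comparisons among the expressing groups were tested, since the rule sets no direction between them. The test was limma on log2(normalized count + 1), with adjusted p-values over all genes tested, and a gene was called where the fold change reached 3 and the adjusted p did not exceed 0.05. All 46 genes were tested in each of 5 comparisons. A total of 24 were called in at least 1 comparison and 22 in none. The share of all genes called at least once was not counted, so these numbers are not read as a trait of the 46 genes. In single comparisons between 0% and 19.7% of all genes were called. Of the comparisons, 3 share the Epi-piPSC-FL6i samples, and each group enters at least 1, so that the comparisons are not independent.

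**Figure D5:**
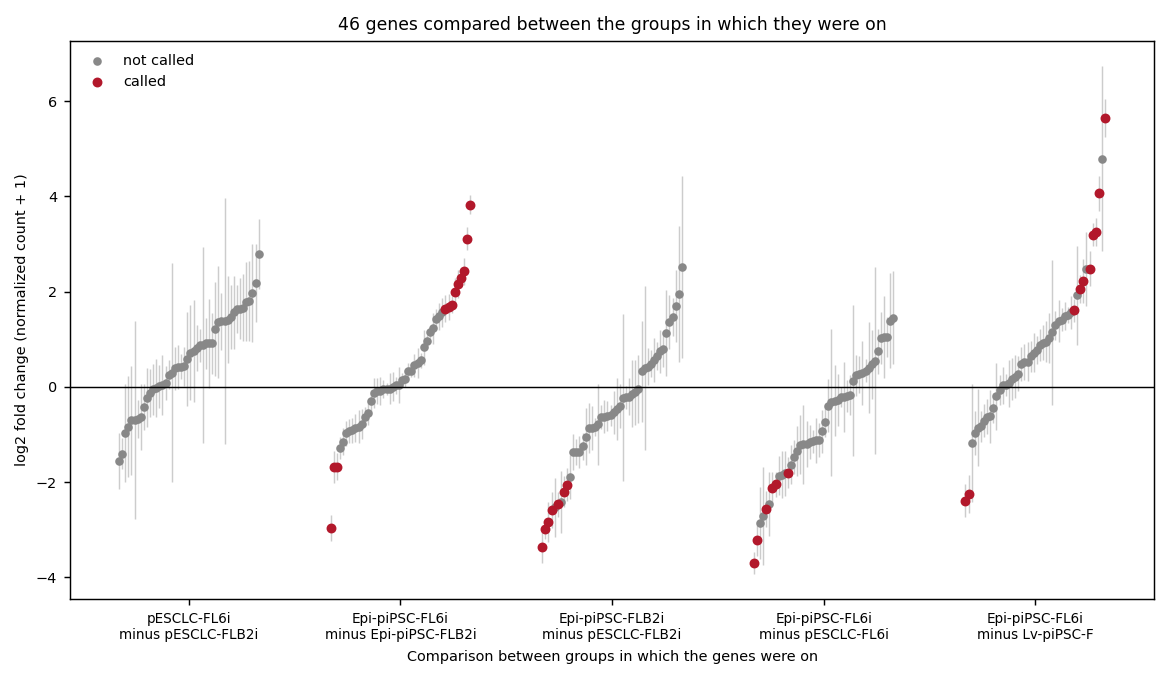
Log2 fold change of each of the 46 genes in 5 comparisons between expressing groups, sorted within each comparison. Points are genes, grey lines are standard errors, and red points were called. In both comparisons of Epi-piPSC with pESCLC all red points are below 0.

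The first question was whether FL6i and FLB2i differed in cells from the embryo. No gene of the 46 was called between pESCLC-FL6i and pESCLC-FLB2i by limma, and of 14495 genes none was (0%). Of the 46, 4 had an unadjusted p under 0.05, and the share of all genes below that value was not counted. On the recovered reads DESeq2 called 1 of them, B4GALNT1, and edgeR called none. The share of all genes called by these is not given here. The largest differences were 2.80 ± 0.74 (SE) for B4GALNT1 and 2.18 ± 0.83 for DNER on the log2 scale, both higher in FL6i, and −1.56 ± 0.58 for PPP1R14C and −1.40 ± 0.32 for HDAC9, all with an adjusted p of 0.901. The median over the 46 genes was 0.65 and 33 of them were above 0, against 49.9% of all genes. The median standard error of the 46 was 0.66, against 0.27 for the same media in Epi-piPSC. None of the 14 genes of the neural and synaptic list was called.

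In Epi-piPSC the same 2 media could be compared between close duplicates. Of the 46 genes, 12 were called (26.1%, against 19.7% of all), 9 higher in FL6i (19.6%, against 8.17% of 14252 genes) and 3 lower (6.52%, against 11.6%). JPH4 rose most, from 44.5 ± 2.94 in FLB2i to 643 ± 6.05 normalized counts in FL6i (SD, n = 2; log2 fold change 3.82 ± 0.20 (SE), adjusted p = 5.93e-06 in limma). ADD2 rose from 54.2 ± 2.35 to 482 ± 106 (log2 fold change 3.11 ± 0.23 (SE), adjusted p = 2.54e-05 in limma). The other genes that rose were NRIP3, ADGRB3, SOX3, B4GALNT1, AMPH, GLRB and CHRNA3, 3.12 to 5.37 times on the scale of the normalized count + 1. ENSSSCG00000013387 fell from 360.4 ± 35.5 to 46 ± 12.8 (log2 fold change −2.97 ± 0.27 (SE), adjusted p = 5.82e-05 in limma). RGCC fell by 1.69 and GABRA3 by 1.68 on the log2 scale, with adjusted p of 0.00328 and 0.00133 in limma. The median over the 46 genes was 0.09, with 26 above 0 and 20 below.

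Of the 14 genes of the neural and synaptic list, 2 were higher in Epi-piPSC-FL6i, FABP7 and STMN2, and 7 were lower. Of 10 WNT targets tested, 7 were lower and none higher. Of 14 genes of the TGFB and BMP list, 8 were lower, among them ID1, ID2, ID3 and ID4, and 2 higher. KDM5D and EIF1AY were both higher, KDM5D being at 1.03 and 0 in the FLB2i samples and at 242 and 181 in the FL6i samples, so that the line codes also differ in Y-linked reads. Of the 4 X-linked genes, SOX3 rose, GABRA3 fell, and RAB33A and RAB39B were not called, at −0.55 and 1.42 on the log2 scale. The medium and the line cannot be told apart here.

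Cells of both origins in the same medium were compared next. Each pESCLC group was 1 line code and the passages differed, so origin cannot be told apart from line or passage in either medium. In FLB2i, 7 of the 46 genes were called between Epi-piPSC and pESCLC, all lower in Epi-piPSC. In all, 7.56% of 14397 genes were called, 4.78% lower, against 15.2% of the 46, and 2.79% higher. CHRNA3 fell from 1318 ± 21.7 in pESCLC to 132 ± 51.4 in Epi-piPSC (SD, n = 2; log2 fold change −3.37 ± 0.33 (SE), adjusted p = 0.0149 in limma). THSD7A fell from 1475 ± 97.1 to 186 ± 27.6 (log2 fold change −2.99 ± 0.22 (SE), adjusted p = 0.0113 in limma). JPH4, NRIP3, RAB39B, HDAC9 and AMPH were 4.15 to 7.18 times lower on the scale of the normalized count + 1. C1QL4 had the highest difference in the other direction, 2.53 ± 1.91, and did not pass. The median over the 46 genes was −0.57. In fits without 1 sample, the spread came only from the group that kept 2. Such fits therefore cannot show whether the calls rest on single samples.

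In FL6i, 6 of the 46 genes were called, again all lower in Epi-piPSC. In all, 10.1% of 14452 genes were called, 7.17% lower, against 13.0% of the 46, and 2.94% higher. THSD7A fell from 1978 ± 115 to 151 ± 20.3 (log2 fold change −3.70 ± 0.23 (SE), adjusted p = 0.0212 in limma), the largest change of the 46 in this comparison. GALNT14 fell from 642 ± 111 to 67.7 ± 6.7 (log2 fold change −3.22 ± 0.33 (SE), adjusted p = 0.0233 in limma). LHFPL3, APC2, MGAT5B and CHRNA3 were 3.5 to 5.89 times lower. CHRNA3 and THSD7A were thus called in both media. The median over the 46 genes was −0.83. As in FLB2i, fits without 1 sample took their spread from 1 group and cannot show whether the calls rest on single samples. In the neural and synaptic list 5 of 14 genes fell in FLB2i and 7 of 14 in FL6i, among them DCX, MAP2 and NLGN1 in both, and none rose in either.

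Next, the FL6i minus FLB2i difference was compared between origins in a limma fit with an interaction, on the 8 pESCLC and Epi-piPSC samples of these media. Since the Epi-piPSC samples of these media are different line codes, medium and line cannot be told apart in this interaction either. Of 15248 genes 3.04% were called, and of the 46 genes 1 was, NRIP3. Its FL6i minus FLB2i difference was −0.42 in pESCLC and 2.42 in Epi-piPSC on the log2 scale, and these differed by 2.85 ± 0.55 (SE), with an adjusted p of 0.0492 in limma. GALNT14 followed, at 0.87 in pESCLC and −0.98 in Epi-piPSC, with an adjusted p of 0.0585. For JPH4, with 0.58 and 3.82, the difference of 3.25 ± 1.14 did not pass, with an adjusted p of 0.169. NRIP3 was not called without either pESCLC-FLB2i sample or without any 1 of the 4 Epi-piPSC samples. MGAT5B was called in its place without the pESCLC-FLB2i sample of passage 3. Without either pESCLC-FL6i sample NRIP3 was called together with others of the 46. These fits took their spread only from the groups that kept 2 samples, and they were not set against all genes.

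The last comparison set Epi-piPSC-FL6i against Lv-piPSC-F, in which vector and medium change together. Of the 46 genes, 10 were called (21.7%, against 12.8% of all), 8 higher in Epi-piPSC-FL6i (17.4%, against 6.92% of 13988 genes) and 2 lower (4.35%, against 5.92%). ELAVL3 was 2031 ± 102 in Epi-piPSC-FL6i and 42.4 ± 21 in Lv-piPSC-F (SD, n = 2; log2 fold change 5.64 ± 0.40 (SE), adjusted p = 0.00695 in limma), the largest called difference among the 46 genes in the 5 comparisons. ADGRB3 was 771 ± 119 and 46.6 ± 18.1 (log2 fold change 4.07 ± 0.37 (SE), adjusted p = 0.00896 in limma). ADD2, DNER, NRIP3, SOX3, CHST2 and GUCY1A2 were 3.05 to 9.54 times higher. C1QL4 was lower, at 203 ± 41.6 against 1016 ± 472 (log2 fold change −2.25 ± 0.39 (SE), adjusted p = 0.0241 in limma), and so was ENSSSCG00000013387, by 2.39 on the log2 scale with an adjusted p of 0.0176 in limma. APC2 had a difference of 4.79 ± 1.94 that did not pass, and its Lv-piPSC-F samples were 469 and 8.01. The median over the 46 genes was 0.75. In the neural and synaptic list 6 of 12 genes tested were higher and none lower, among them DCX, MAP2, SYT1 and SNAP25. Here too, fits without 1 sample took their spread from 1 group and cannot show whether the calls rest on single samples.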

How the data were processed

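RNAseq of polyadenylated RNA from 14 samples was analysed. Per the study's methods, paired reads from a stranded kit were aligned with TopHat 2.1.0 to Sscrofa11.1, counted with HTSeq at its default settings and scaled with DESeq2. The signal values the authors deposited are these normalized read counts. Division by the smallest value above 0 of each sample gave whole reads for 100% of values, with a largest deviation of 1.8e-09 reads, and 6193659 to 58878377 reads a sample. The HTSeq default counts by strand. Whether it matched the strand of the kit was not tested, so overlapping and antisense genes are uncertain, as are near-identical copies.

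Symbols for 14151 identifiers came from a reference table. limma 3.58.1 with a trend was fitted to each pair of groups (4 samples) on log2(normalized count + 1), over genes that reached 10 normalized counts in 2 or more samples. This understates changes of low genes. The recovered reads were also tested with DESeq2, which the study used, and with edgeR (R 4.3.3). On simulated reads for the 5 comparisons, 96 to 99 of 100 genes changed 4-fold were called where the dispersion was 0.02 and 11 to 22 where it was 0.2. Both groups had the same dispersion there, and which value is nearer to the data was not tested. In the data, the median standard error over all genes was 0.51 for pESCLC-FL6i minus pESCLC-FLB2i and 0.17 for the same media in Epi-piPSC. The interaction was added after seeing the data. The 46 genes, the gene lists and the tests were chosen with earlier results of these data known. Named by rule were the 20 genes with the highest lowest group mean, those on a list, the 2 called with the largest change in each direction of each comparison and those nearest the thresholds. The others were named after their values were seen.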

Additional observations from a re-analysis of the deposited data

Results flagged for a closer look

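NRIP3 is listed because its FL6i minus FLB2i difference was called as unequal between origins. That difference was 2.85 higher in Epi-piPSC than in pESCLC on the log2 scale (interaction in limma, adjusted p = 0.0492, 3.04% of all genes called). In Epi-piPSC the medium and the line cannot be told apart, so this is not an effect of the medium alone. Its normalized counts were 54.9 and 40.6 for Epi-piPSC-FLB2i and 227 and 293 for Epi-piPSC-FL6i, against 233 and 356 for pESCLC-FLB2i and 171 and 269.8 for pESCLC-FL6i. The call was lost in 5 of the 8 fits that left out 1 sample with no other gene of the 46 called, and in 1 in which MGAT5B was called.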

How the results depend on the processing

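The number of genes that met the rule was 18 when every sample had to pass, 20 with thresholds of 10 and 50, 99 with thresholds of 20 and 30, 46 with reads scaled to the total (41 shared) and 39 to 67 with 1 sample left out, the highest without the first pESCLC-primary sample. Of the calls in Epi-piPSC-FL6i minus Epi-piPSC-FLB2i (12), 6 were made in 1 fit on all 14 samples, 26 by adjusted p alone, 2 at a log2 fold change of at least 3 and 9 to 12 with 1 sample left out. For Epi-piPSC-FLB2i minus pESCLC-FLB2i (7) there were 1 at a log2 fold change of 3 and 0 to 18 with 1 sample left out. For Epi-piPSC-FL6i minus pESCLC-FL6i (6) there were 12 with DESeq2, 2 at a log2 fold change of 3 and 0 to 21 with 1 sample left out. For Epi-piPSC-FL6i minus Lv-piPSC-F (10) there were 4 at a log2 fold change of 3 and 0 to 17 with 1 sample left out. For pESCLC-FL6i minus pESCLC-FLB2i (0), DESeq2 made 1 call, and every fit with 1 sample left out made 0. The interaction gave 0 to 10. Where 1 sample was left out, the lone sample was assumed to vary like the groups that kept 2, and the spread came from those groups only. Counts of calls from such fits therefore do not show whether calls rest on single samples. None of the counts of calls under the alternatives is set against the share of all genes called. They are not read as a trait of the 46 genes. No called gene changed direction under any alternative. With the replicate number as a block, the 5 comparisons in the order of the report gave 0, 12, 4, 4 and 10 calls, so that the count fell from 7 to 4 in FLB2i. The numbers share no stated animal or batch, and the deviations of same-numbered samples correlated at −0.057 to 0.36, with the highest value for pESCLC, where both first samples are at passage 3. The cause of the other differences was not tested. Depth limits the silent groups to about 3 reads, and 2 samples a group limit the power for 3-fold changes.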
